A study of Bos taurus with 12 samples.

Results

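The theca identity genes described here are INSL3, APOD, TCF21, NR2F2 and ADAMDEC1, 5 of the 9155 named genes on a bovine Affymetrix array. They were found as every probe set that the platform's probe-gene table gives to 1 of these symbols, which made 10 of the 24016 probe sets that are not controls. Of these 10, 9 were bright enough to be tested, among 17236 tested probe sets in all. The brightest probe set of a gene stands for it below and is called its lead probe set.

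Theca cells and granulosa cells were collected from bovine antral follicles of 3 sizes, and each of the 6 groups has 2 arrays, 12 in all. The groups are theca of small follicles (at most 5 mm), theca of medium follicles (5 to 10 mm), theca of large follicles (over 10 mm), and granulosa cells of small, medium and large follicles in the same ranges. All 6 groups share their source: untreated ovaries of young heifers that were cycling and not pregnant, taken within 10 min of death, carried on ice, and used only when no corpus luteum was seen. Each array measured total RNA pooled from 20 to 40 follicles of 1 size according to the extraction protocol, and from 20 to 40 ovaries of 6 to 10 animals according to the series' design text. Whether pools had animals in common is not stated, so the spread between arrays is that between pools and the spread between animals is hidden. Sample titles and source names gave the layer, because the description field names theca for all 12 samples.

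The theca is the vascular connective tissue sheath around the follicle, and its steroid-producing cells respond to luteinizing hormone with androgens that granulosa cells turn into oestrogen. INSL3 encodes insulin-like peptide 3, a secreted hormone of theca cells and of Leydig cells in the testis that acts through the receptor RXFP2. APOD encodes apolipoprotein D, a lipocalin that carries small lipids, TCF21 a basic helix-loop-helix transcription factor of mesenchyme, and NR2F2 the orphan nuclear receptor COUP-TFII, found in mesenchyme and in steroid-producing interstitial cells. ADAMDEC1 encodes an ADAM-like protease, decysin, known in humans from macrophages, dendritic cells and stroma of the gut.

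The replicate arrays of a group correlated with Spearman coefficients from 0.852 (theca of small follicles) to 0.955 (theca of medium follicles), and at most 0.641% of values were identical within a pair. On theca small replicate 1 the control transcript GAPDH gave 8.36 times more signal from its 3' end than from its 5' end, against 0.984 to 1.30 times on the other 11 arrays. Granulosa large replicate 1 had an actin ratio of the same kind of 20.99, against 2.39 to 11.2 elsewhere, and the highest median signal, 48.7 against 33.6 to 39.1. Results that rest on these arrays are given without them too, some of these values chosen after the data were seen. The layer labels were checked with CYP17A1, the enzyme that makes androgens, which had signals of 1785.8 to 5781.5 on theca arrays and 26.5 to 227.7 on granulosa arrays.

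All 5 genes had far higher signals in theca than in granulosa, over all sizes and within each size. The differences ran from 9.62-fold for NR2F2 to 29.0-fold for ADAMDEC1. Folds and changes are theca minus granulosa on the log2(signal + 16) scale, with the standard error of the limma model, and the added 16 makes the fold of a dim gene too small. A probe set is called when its limma p, adjusted by the Benjamini-Hochberg method over all tested probe sets, is under 0.05. The genes were chosen with their layer differences known, so the adjusted p-values describe these differences and are not independent support for them. In bulk samples, fewer cells of a type and less RNA per cell cannot be told apart.

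**Figure D1:**
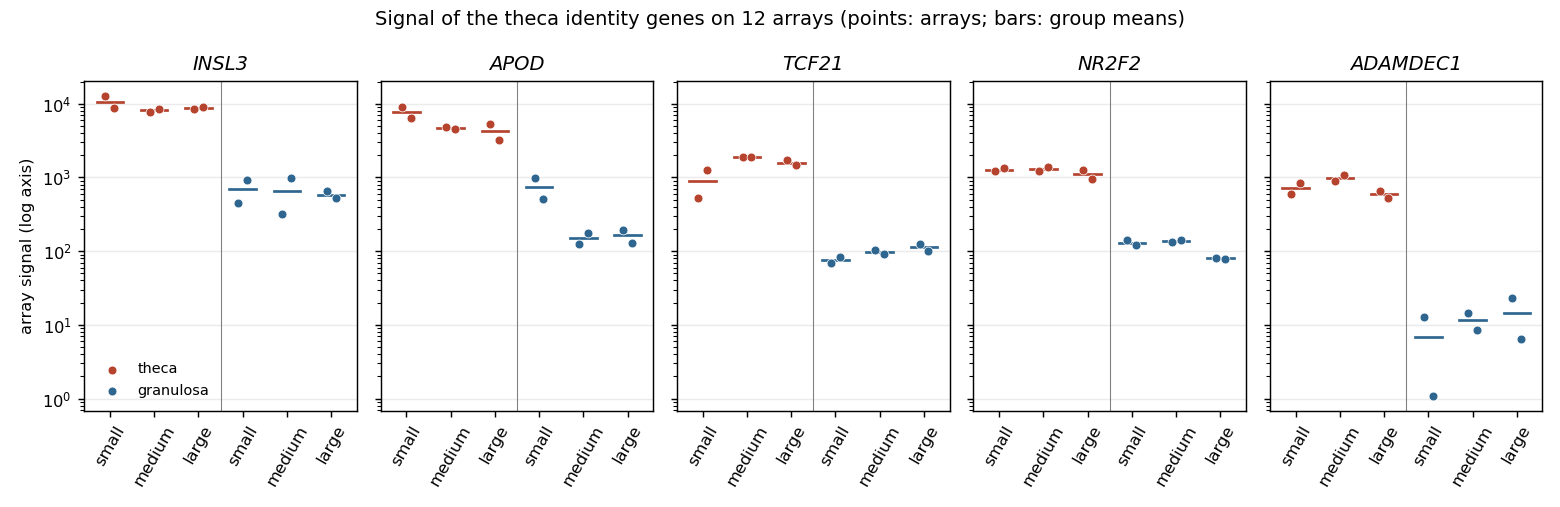
Array signal (log axis) of the lead probe set of each gene on 12 arrays, with theca left of granulosa in each panel and sizes from small to large; points are arrays and bars are group means of 2 arrays. Every theca point lies above every granulosa point of the same gene, and the gap is widest for ADAMDEC1, whose granulosa signals lie between 1.1 and 23.0.

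The hormone gene INSL3 gave signals of 12716.5 and 8705.8 in theca of small, 7810.6 and 8462.6 in theca of medium and 8461.6 and 9088.7 in theca of large follicles. The granulosa signals were 455.6 and 928.4 in small, 315.7 and 995.0 in medium and 649.0 and 519.1 in large follicles. The lowest theca signal was 7.85 times the highest granulosa signal, so the layers did not overlap, and the 2 granulosa arrays of medium follicles differed by a larger factor than any pair of theca replicates. INSL3 was higher in theca by 3.89 ± 0.27 over all sizes (14.8-fold, limma adjusted p = 3.38e-07). By follicle size the change was 3.98 ± 0.47 in small, 3.81 ± 0.47 in medium and 3.88 ± 0.47 in large ones, values that lie within 1 standard error of each other.

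The lipid carrier gene APOD had theca signals of 9014.6 and 6460.7 in small, 4778.3 and 4603.7 in medium and 5251.3 and 3240.2 in large follicles. In granulosa cells the signals were 989.8 and 513.9 in small, 123.8 and 175.8 in medium and 196.2 and 130.5 in large follicles. The layers did not overlap, and in both layers the small follicles held the highest signals. APOD was higher in theca by 4.26 ± 0.23 over all sizes (19.2-fold, limma adjusted p = 3.14e-08). Among small, medium and large follicles the change was 3.39 ± 0.39, 4.85 ± 0.39 and 4.55 ± 0.39 in that order.

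The transcription factor gene TCF21 had theca signals of 531.9 and 1241.9 in small, 1913.6 and 1886.5 in medium and 1706.3 and 1471.5 in large follicles. Its granulosa signals were 68.4 and 84.3 in small, 102.5 and 92.5 in medium and 124.1 and 100.3 in large follicles. The lowest theca signal was 4.29 times the highest granulosa signal, and it came from theca small replicate 1, the array with the raised GAPDH ratio. TCF21 was higher in theca by 3.63 ± 0.22 (12.4-fold, limma adjusted p = 8.67e-08), and by follicle size 3.17 ± 0.37 in small, 4.08 ± 0.37 in medium and 3.65 ± 0.37 in large ones.

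NR2F2 had theca signals of 1228.8 and 1330.1 in small, 1233.0 and 1364.9 in medium and 1278.8 and 951.2 in large follicles. The granulosa signals were 139.6 and 121.1 in small, 131.8 and 142.4 in medium and 80.4 and 78.8 in large follicles. Its theca signals were the most even of the 5 genes, with the highest 1.44 times the lowest, and the layers did not overlap. The change was 3.27 ± 0.17 over all sizes (9.62-fold, limma adjusted p = 3.13e-08), and by follicle size 3.15 ± 0.30 in small, 3.10 ± 0.30 in medium and 3.55 ± 0.30 in large ones.

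The protease gene ADAMDEC1 had theca signals of 600.4 and 830.2 in small, 889.2 and 1076.8 in medium and 663.3 and 532.7 in large follicles. In granulosa cells they were 12.8 and 1.1 in small, 14.6 and 8.4 in medium and 23.0 and 6.4 in large follicles. On 5 of 6 granulosa arrays the signal lay below 22.5, the level that a group mean had to pass for a probe set to be tested, so ADAMDEC1 was tested through its theca groups alone. The change was 4.86 ± 0.22 over all sizes (29.0-fold, limma adjusted p = 1.47e-08), and by follicle size 5.02 ± 0.38 in small, 5.19 ± 0.38 in medium and 4.37 ± 0.38 in large ones. The ratio of the plain layer means was 69.3 and depends on granulosa signals near the bottom of the array's range. With 1 added in place of 16 the change was 6.29.

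**Figure D2:**
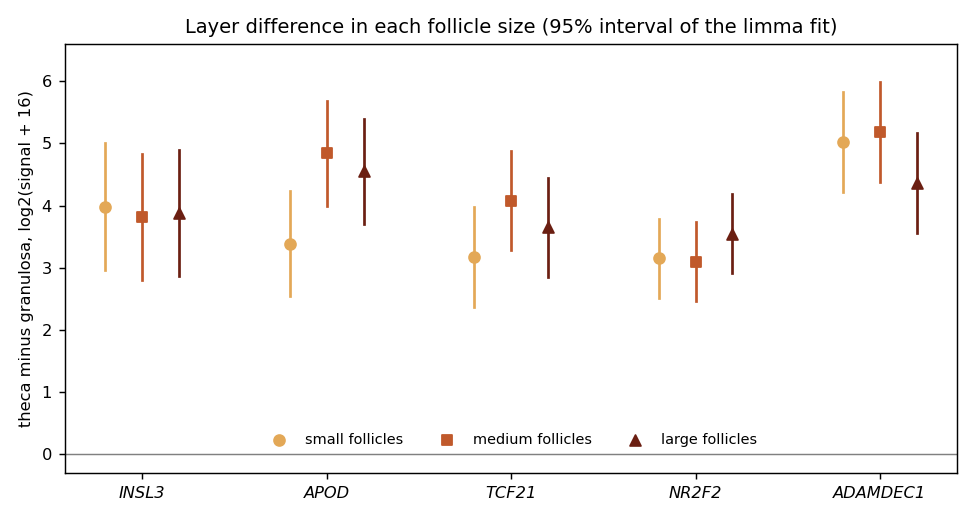
Theca minus granulosa change on the log2(signal + 16) scale (vertical axis) for the 5 genes in small, medium and large follicles, with the 95% interval of the limma fit on 2 arrays per group. All 15 values lie between 3.10 (NR2F2, medium) and 5.19 (ADAMDEC1, medium), and no interval reaches 2.

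Counted together, all 5 lead probe sets were called higher in theca over all sizes, where 11.2% of all tested probe sets were called higher. All 5 were also called higher in theca of small follicles (5.08% of all tested probe sets), of medium follicles (4.21%) and of large follicles (2.39%). Their median change was 3.89, against -0.10 over all tested probe sets. On all 5 the 6 theca arrays lay above the 6 granulosa arrays, as on 5.22% of all tested probe sets. A change of at least 3 was found for 95 tested probe sets (0.551%), with the 5 lead probe sets among them.

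The other probe sets of these genes gave differing values. APOD has 3 probe sets. Beside the lead, the second by brightness gave a layer change of 4.13 ± 0.29, whereas the dimmest gave signals of 91.4, 151.9, 89.3, 65.0, 47.7 and 32.3 in theca (by size from small to large), against 137.5, 26.1, 22.1, 12.2, 46.0 and 5.2 in granulosa. On that dimmest probe set the layers overlapped, the change over all sizes was 0.95 ± 0.33 (limma adjusted p = 0.0488), and no single size was called. Which transcripts each probe set detects is not given in the sources used here.

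The second of 3 NR2F2 probe sets differed by 2.81 ± 0.28, and the dimmest stayed below the level for testing, with 21.2 as its highest signal on any array. The second probe set of ADAMDEC1 gave 20.6 and 352.8 in theca of small, 355.0 and 450.0 in theca of medium and 287.1 and 260.4 in theca of large follicles, against 1.0 to 28.1 in granulosa. The low value of 20.6 is that of theca small replicate 1, where this probe set gave 0.0343 times the lead probe set's signal, against 0.399 to 0.489 times on the other 5 theca arrays. Its layer change was 3.42 ± 0.43 over all sizes, and in small follicles it was 2.40 ± 0.75 and not called (limma adjusted p = 0.0594). Without theca small replicate 1 it was 4.06 ± 0.49 in small follicles and was called (limma adjusted p = 0.00066). Of the 9 tested probe sets, 9 were called higher in theca over all sizes, 7 in the small, 8 in the medium and 8 in the large size, and on 7 of the 9 the layers did not overlap.

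Some signal of these genes was measured on the granulosa arrays, and it is given here as a share of the theca signal. Relative to the theca mean of the same follicle size, the granulosa signal was 3.88% to 12.2% for INSL3 (median 6.66%), 2.64% to 12.8% for APOD (4.19%) and 4.87% to 9.51% for TCF21 (7.01%). For NR2F2 it was 7.07% to 11.0% (9.79%), and for ADAMDEC1 it was 0.154% to 3.85% (1.28%). CYP17A1 gave 0.797% to 5.22% (1.55%). The percents of ADAMDEC1 rest on granulosa signals that were below 22.5 on 5 of 6 arrays, and shares of different probe sets are not ranked here.

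Genes of connective tissue were measured in granulosa samples at shares that differed widely. Over 11 stroma markers the median share of the theca signal ran from 1.11% for the matrix protein gene OGN to 55.6% for COL1A2, a chain of collagen I, and it was 48.6% for the growth factor receptor gene PDGFRA and 17.4% for the proteoglycan gene LUM. COL1A1, the other chain of collagen I, had 1.42% to 11.0%, and the matrix protein genes DPT and OGN had 0.124% to 7.62% and 0.441% to 4.77%. The summed signal of 11 stroma markers was 25283.0 to 33606.4 on theca arrays and 2058.7 to 9109.8 on granulosa arrays. Among granulosa arrays the stroma sum was highest on medium replicate 1 and lowest on medium replicate 2, with COL1A2 alone at 5069.4 and 1134.9. On these arrays, in that order, INSL3 had 315.7 and 995.0, APOD 123.8 and 175.8, and NR2F2 131.8 and 142.4. TCF21 had 102.5 and 92.5 and ADAMDEC1 14.6 and 8.4, in the other direction. The part of theca or stroma cells in the granulosa signals was not tested.

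**Figure D3:**
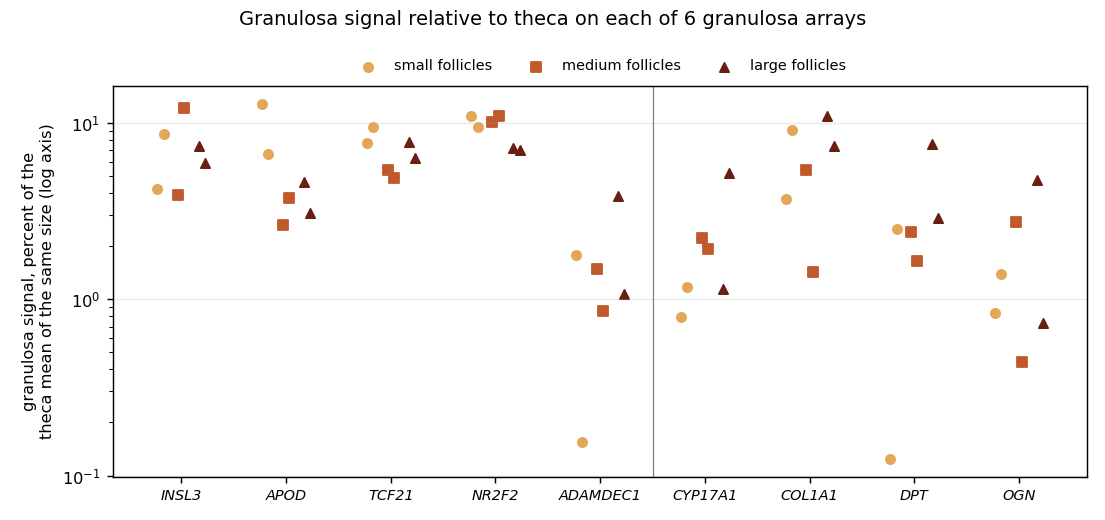
Granulosa signal of the 5 genes, of CYP17A1 and of 3 connective tissue genes on each of 6 granulosa arrays, as a percent of the mean of the 2 theca arrays of the same size (log axis); symbols give the follicle size. NR2F2 lies between 7.07% and 11.0% on all arrays, ADAMDEC1 between 0.154% and 3.85%, and APOD is highest on the small follicle arrays.

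Markers of other cell types bear on the layers as follows. Of 13 granulosa markers, 11 were called lower in theca, and of 11 stroma markers, 10 were called higher. Of all tested probe sets, 11.2% were called higher and 13.6% lower. Of 8 tested endothelial markers, 7 were called higher in theca over all sizes. By follicle size it was 6 for small, 8 for medium and 0 for large ones, against 5.08%, 4.21% and 2.39% of all tested probe sets. In the large size the median change of the endothelial markers was 0.59 and 3 had an unadjusted limma p under 0.05. Of 8 pericyte and smooth muscle markers, 5 were called higher over all sizes, among them RGS5 (3.60 ± 0.18). Of 9 macrophage markers, 2 were called higher in theca (C1QA and C1QB) and 2 lower (CD14 and CD5L), and with 1 array left out these counts ran from 0 to 3 each. Over all sizes, none of 6 T cell markers and none of 3 red blood cell markers was called in limma. In either list 0 had an unadjusted p under 0.05. Of 3 oocyte markers, 1 was called in each direction over all sizes. Within small follicles, 3 macrophage markers were called higher in theca. Within large follicles, 2 macrophage and 2 T cell markers were called lower in theca, as were 2.02% of all tested probe sets. The part of vessels, pericytes and immune cells in the theca signals was not tested.

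Because ADAMDEC1 is known from human macrophages, it was set beside the macrophage markers array by array. Their summed signal was 1010.0 to 3341.4 on theca arrays, against 382.2 to 1077.4 on the granulosa arrays of small and medium follicles and 13317.8 and 3549.8 on those of large follicles. All 9 markers were called higher in granulosa of large than of small follicles, as were 1.82% of all tested probe sets. CD68 for instance rose by 3.69 ± 0.68 (limma adjusted p = 0.0122). On those same granulosa arrays of large follicles ADAMDEC1 had signals of 23.0 and 6.4, against 532.7 on the lowest theca array. The array with 13317.8 is granulosa large replicate 1, which also had the raised actin ratio. Without it the calls of these markers in that comparison were lost, as were those of all other tested probe sets. That fit leaves 1 array for granulosa of large follicles, and in it CD68 was at 2.54 ± 0.68. The part of macrophages in the ADAMDEC1 signals was not tested.

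Within theca, no lead probe set was called between any 2 sizes. At an unadjusted limma p under 0.05 there was 1 of the 5 between medium and small, 2 between large and small and 0 between large and medium, against 6.2%, 10.2% and 3.13% of all tested probe sets. Of all tested probe sets, 0.0116% were called between medium and small, 0.0348% between large and small, and 0% between large and medium. INSL3 changed by -0.37 (95% interval -1.39 to 0.65) from small to medium follicles and by -0.26 (-1.28 to 0.75) from small to large. NR2F2 changed by 0.02 (-0.62 to 0.66) and -0.21 (-0.85 to 0.43), and ADAMDEC1 by 0.46 (-0.34 to 1.27) and -0.24 (-1.05 to 0.56). These intervals do not show that the levels were equal.

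TCF21 and APOD had theca signals that did not overlap between small follicles and the larger sizes, in opposite directions. Of all tested probe sets, 9.36% had both small theca arrays below the other 4, as TCF21 did, and 13.4% had both above, as APOD did. Both TCF21 signals in theca of small follicles (531.9 and 1241.9) lay under all 4 signals of medium and large follicles, the lowest of which was 1471.5. The change was 1.21 ± 0.37 between medium and small (unadjusted p = 0.00603, limma adjusted p = 0.799) and 0.95 ± 0.37 between large and small (limma adjusted p = 0.416). Without theca small replicate 1 these changes were 0.61 and 0.35, and without theca small replicate 2 they were 1.81 (limma adjusted p = 0.0288) and 1.55 (limma adjusted p = 0.0327), a fit in which the array with the raised GAPDH ratio was the 1 array left for theca of small follicles. Both APOD signals in theca of small follicles lay above those of the larger sizes, with a change of -0.88 ± 0.39 between large and small (unadjusted p = 0.0411, limma adjusted p = 0.469).

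Of 13 granulosa markers, 2 were called higher within theca in the same comparison and 0 lower, with a median change of 0.03 against -0.04 over all tested probe sets. Their summed signal, carried mostly by INHA, INHBA and CYP19A1, was 5555.6 and 5205.5 in theca of small, 12301.5 and 6753.2 in theca of medium and 12762.1 and 19119.3 in theca of large follicles. CYP19A1, the aromatase that makes oestrogen, was called higher in theca of large than of small follicles by 5.70 ± 0.63 (limma adjusted p = 0.00203), and the inhibin subunit gene INHBA by 4.54 ± 0.50 (limma adjusted p = 0.00203). Both calls were kept without theca small replicate 1 (limma adjusted p = 0.0421 and 0.0378). They were lost without theca large replicate 2 (limma adjusted p = 0.0616 for CYP19A1), without both arrays that stand apart (limma adjusted p = 0.0612 and 0.054) and in a fit of the theca arrays alone (limma adjusted p = 0.183). Other granulosa markers were not called and went both ways. INHA had 3971.9 and 2929.9 in theca of small and 7549.4 and 7721.7 in theca of large follicles. NR5A2 and FOXL2 also lay higher on both theca arrays of large follicles. KRT18, a keratin of epithelial cells, lay lower there at -1.36 ± 0.40 (limma adjusted p = 0.294). The steroid enzyme gene HSD17B1 lay lower at -1.54 ± 0.66 (limma adjusted p = 0.449). The stroma sums were 29244.3 and 33447.7 in theca of small and 29489.2 and 25283.0 in theca of large follicles. The part of granulosa cells in the theca values was not tested.

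**Figure D4:**
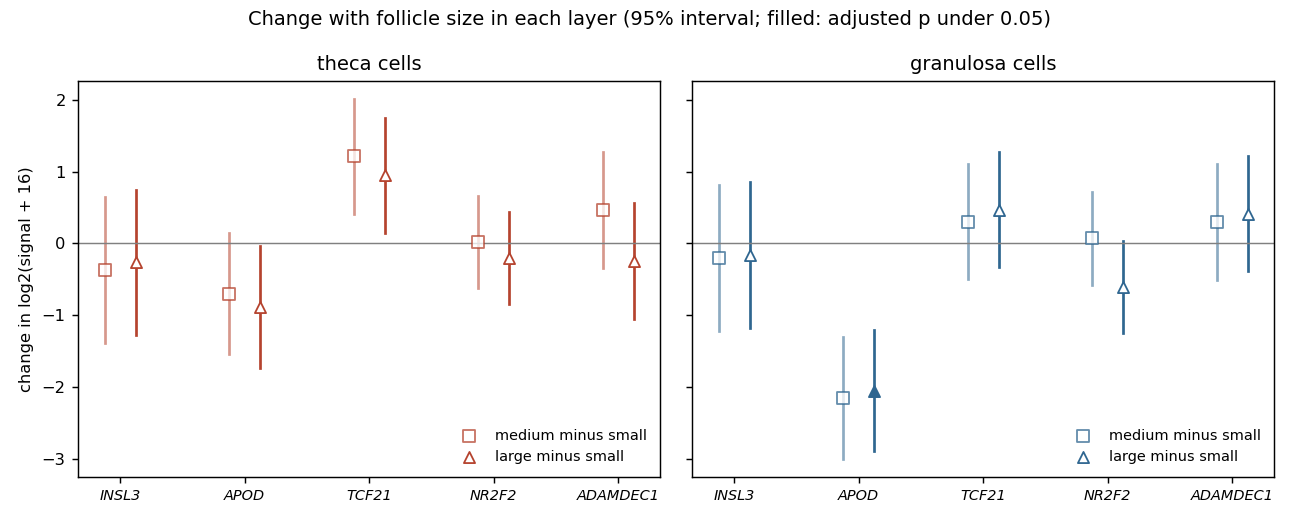
Change with follicle size within theca (left) and within granulosa (right) on the log2(signal + 16) scale, medium minus small and large minus small, with 95% intervals of the limma fit on 2 arrays per group; a filled symbol has an adjusted p under 0.05. The 1 filled symbol is APOD in granulosa, large minus small, at -2.05.

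In granulosa cells, APOD was the 1 of 5 genes called between sizes. It fell in large follicles by 2.05 ± 0.39 (4.14-fold lower than in small follicles, limma adjusted p = 0.0144), in a comparison where 2.22% of all tested probe sets were called and 0.4% were called lower. Medium follicles gave a change of -2.16 ± 0.39 against small ones, which was not called (limma adjusted p = 0.157) in a comparison with 0.0058% called, and large minus medium was 0.11 ± 0.39. Both arrays of small follicles lay above all 4 others, as on 6.19% of tested probe sets.

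The call in APOD was sensitive to leaving out an array of the compared groups. For small follicles, the call was lost when replicate 1 was dropped (change -1.59) and kept when replicate 2 was dropped (-2.51). For large follicles, dropping replicate 1 (-2.32) or replicate 2 (-1.78) lost the call. Each of these fits leaves 1 array in a group, which limits what a kept or a lost call shows. When replicate 1 of large follicles was dropped, the change of APOD was larger in size. In that fit all other tested probe sets lost their calls too. When replicate 2 of large follicles was dropped, other probe sets kept calls while APOD lost its own. The second probe set of APOD had 217.6 and 49.1 in small, 22.0 and 17.0 in medium and 30.8 and 17.8 in large follicles, and a change of -1.63 ± 0.50 (limma adjusted p = 0.115). The stroma sums of small follicles were 4871.7 and 6525.6, within the range of the other granulosa arrays. COL1A2 alone made up 2788.1 and 3969.1 of these sums. MYH11, the smooth muscle myosin and 1 of 8 pericyte and smooth muscle markers, was called lower in the same comparison by 2.83 ± 0.50 (limma adjusted p = 0.0103). It had 167.5 and 71.8 in large follicles against 1096.9 and 711.6 in small ones. No other marker of that list was called. ACTA2, for instance, lay the other way, with 733.1 and 2339.0 in large follicles against 342.9 and 394.3 in small ones. Of the granulosa markers, KRT18 was called lower, at -2.16 ± 0.40 (limma adjusted p = 0.0118), and CYP19A1 higher, at 4.15 ± 0.63 (limma adjusted p = 0.00587). In the same comparison 9 macrophage and 5 of 6 T cell markers were called higher, as were 1.82% of all tested probe sets. Without granulosa large replicate 1 all of these calls were lost, with MYH11 at -3.36 and KRT18 at -2.40. The part of other cell types in the change of APOD was not tested.

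The other 4 genes were not called between granulosa sizes. NR2F2 had -0.61 ± 0.30 between large and small (limma adjusted p = 0.372) and -0.68 ± 0.30 between large and medium (limma adjusted p = 0.397, background 0.679% called), and both arrays of large follicles lay under the other 4, as on 10.9% of all tested probe sets. TCF21 had 0.47 ± 0.37, INSL3 -0.16 ± 0.47 and ADAMDEC1 0.41 ± 0.38 between large and small, the last among signals of which 1 of 4 passed the level for testing.

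Whether a size change differed between the layers was tested as an interaction. None of the 5 genes was called in limma in any of the 3 size pairs, and 1 of them had an unadjusted p under 0.05 in 1 pair, APOD between medium and small, where 2.51% of all tested probe sets had one. Of all tested probe sets, 0% were called between medium and small, 0.0232% between large and medium and 0.0116% between large and small. The nearest was APOD between medium and small follicles, where theca minus granulosa was 1.46 ± 0.56 (limma adjusted p = 0.999). The wider layer gap of APOD in medium than in small follicles is therefore not shown to differ beyond the spread between arrays after adjustment.

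Related genes were read from 9 lists, whose counts stand against 11.2% of all tested probe sets called higher and 13.6% called lower in theca. In the list of theca steroid enzymes and the luteinizing hormone response, 4 of 11 tested genes were called higher in theca and 1 lower, with a median change of 0.28 against -0.10 over all tested probe sets. CYP17A1 was higher by 5.42 ± 0.33 (42.8-fold, limma adjusted p = 9.7e-08), FDX1, which passes electrons to mitochondrial cytochrome P450 enzymes, by 1.62 ± 0.18, and the receptor gene LHCGR and the lipoprotein receptor gene SCARB1 by 1.23 ± 0.25 each. POR, the electron donor of CYP17A1, was lower by 0.83 ± 0.24 in theca (limma adjusted p = 0.0204). INSL3 itself was the 1 gene of its hormone and receptor list with a named probe set, so its receptor RXFP2 was not analysed here.

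Among 9 tested mesenchymal and gonadal transcription factors, 6 were called higher in theca and 1 lower. Besides TCF21 and NR2F2 these were NR2F1, the paralogue of NR2F2 (1.74 ± 0.20), MEIS2 (1.38 ± 0.17), MEIS1 (0.95 ± 0.24) and ZEB1 (0.92 ± 0.21), while EMX2 was lower (-0.85 ± 0.19). The list without the 2 described genes had 4 of 7 called higher. NR2F1 had theca signals of 285.2 to 645.2 and granulosa signals of 76.3 to 258.1, so its layers did not overlap but lay closer than those of NR2F2.

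Of 6 tested dimer partners and inhibitors of basic helix-loop-helix factors such as TCF21, 2 were called higher in theca. ID1, an inhibitor of these factors and a target of BMP signals, was higher by 2.61 ± 0.23 (6.10-fold, limma adjusted p = 2.37e-06), and TCF4, a dimer partner, by 0.90 ± 0.23. ID1 was also the 1 gene called higher among 10 tested BMP genes (3 without theca small replicate 1), where the ligand gene BMP2 (-1.83 ± 0.36) and the receptor gene BMPR1B (-0.98 ± 0.26) were lower in theca. Of 2 tested hedgehog genes, the ligand gene IHH was lower in theca (-3.20 ± 0.39, limma adjusted p = 6.26e-05).

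The nuclear receptors went both ways, with 3 of 10 tested genes called higher and 2 lower in theca. NR2F2, NR2F1 and NR0B1 (1.04 ± 0.21) were higher, and NR5A2 (-2.45 ± 0.26, limma adjusted p = 1.66e-05) and the oestrogen receptor gene ESR2 (-1.13 ± 0.20) were lower. Among 9 tested lipocalins, apolipoproteins and their receptors, APOD and PTGDS, which makes prostaglandin D2 (1.55 ± 0.39), were higher and ORM1 (-1.18 ± 0.19) was lower. PTGDS overlapped between layers, with 417.7 to 897.4 in theca and 48.9 to 752.9 in granulosa.

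Among 9 tested ADAM family proteases, 3 were called higher and 1 lower in theca, or 4 and 2 without theca small replicate 1. ADAMTS4, which cleaves proteoglycans, had theca signals of 100.8 to 429.5 and granulosa signals of 0.6 to 31.3, a change of 3.39 ± 0.31 (10.5-fold, limma adjusted p = 4.39e-06). It was tested through its theca groups alone, and the size of the fold depends on the added 16. ADAMTS1 was higher by 1.64 ± 0.22 on its lead probe set and by 0.57 on its other one, which was not called (limma adjusted p = 0.129). ADAM23 was lower (-0.75 ± 0.18). The median change of the list was 0.07, against 4.86 for ADAMDEC1. Between large and small follicles, 0 of the 60 tested genes on the 9 lists were called within theca in limma and 15 had an unadjusted p under 0.05, as did 10.2% of all tested probe sets. In granulosa APOD was the 1 gene called.

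**Figure D5:**
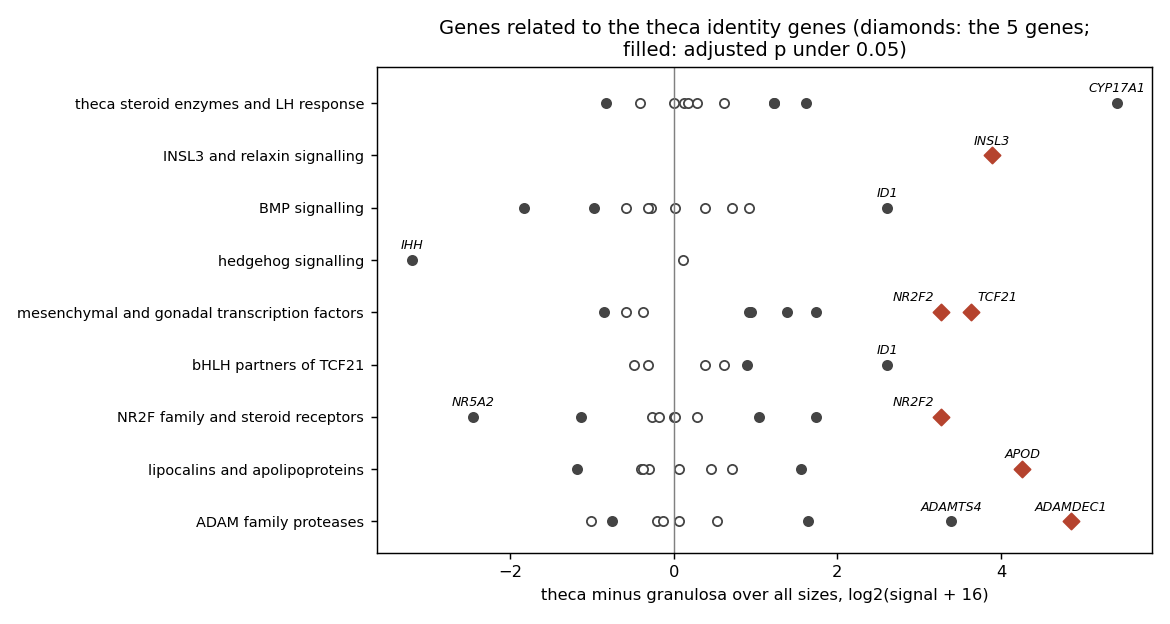
Theca minus granulosa change over all sizes on the log2(signal + 16) scale (horizontal axis) for each tested gene of 9 lists; diamonds are the 5 genes described, circles other list members, and filled symbols have a limma adjusted p under 0.05. CYP17A1 lies furthest to the right at 5.42 and IHH furthest to the left at -3.20.

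The genes most like each of the 5 over all 12 arrays were found by centring every probe set on its mean log2(signal + 16) and taking the root mean square difference. For INSL3 these were LPL (0.43), IGFBP6 (0.49) and RGS5 (0.50), and for APOD they were C4A (0.55), RGS5 (0.78) and NID1 (0.80). TCF21 had LOX (0.34), CAV1 (0.42) and OLFML1 (0.44), and NR2F2 had RGS5 (0.29), SH3BGR (0.38) and OTULINL (0.39). ADAMDEC1 had NID1 (0.33), FBLN5 (0.38) and SPARCL1 (0.46), whose layer changes of 4.61, 4.84 and 5.00 were close to its own 4.86.

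Each of the 5 genes had at least 1 other gene nearer to it than any of the other 4. That search ran over 7893 tested named genes, so this says little on how alike the 5 genes are. Between the 5 genes the differences ran from 0.59 (INSL3 and NR2F2) to 1.17 (APOD and TCF21), and APOD was at least 0.85 from each of the others. These likenesses are a description over 12 arrays and include the layer difference, for which the 5 genes were chosen.

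Genes next to them on the chromosome were taken from assembly ARS-UCD2.0, used here for gene order only. Of 20 neighbours, 4 for each gene, 7 had a named probe set and 6 were tested, and 0 were called higher in theca in limma, against 11.2% of all tested probe sets, and 0 were higher at an unadjusted p under 0.05. B3GNT3, beside INSL3, was lower in theca (-0.89, limma adjusted p = 0.0103), as was BDH1, near APOD (-0.76, limma adjusted p = 0.0238). Beside TCF21, TBPL1 had -0.07 and RPS12 had 0.31, neither called, and STC1, near ADAMDEC1, had -0.65 (limma adjusted p = 0.0625).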

How the data were processed

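Per the labels, biotin-labelled total RNA was read on 1-colour Affymetrix bovine arrays. Per probe set and array, the authors deposited a signal intensity on a linear scale; which software made it is not given in the sources used here. Symbols came from the platform annotation, which gave 1 symbol to 13292 probe sets, several to 86 and none to 10638. Of the named probe sets, 13263 had an Entrez identifier listed for assembly ARS-UCD2.0, and 0 symbols changed.

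Of 24128 probe sets, 112 controls were left out. Signals were turned into log2(signal + 16) without rescaling. Testing required a mean above the 40th percentile of all values (signal 22.5) in at least 1 group. With limma 3.58.1 in R 4.3.3, a model with a mean for each group was fitted to the 12 arrays (6 residual and 7.92 prior degrees of freedom, prior SD 0.376). Benjamini-Hochberg adjustment was made within each of 13 contrasts, with a threshold of 0.05. Their number, 2 arrays per group, limits the precision. The procedure was tested on simulated data. Plots came from matplotlib 3.10.9 and Python 3.11.15.

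The named genes were all probe sets of the 5 genes, up to 4 called members per list and comparison by size of change, CYP17A1 as a layer check, and the 3 most similar genes for each. Genes beyond these, such as neighbours, connective tissue and macrophage genes, other cell type markers and EMX2, were named after their values were seen. The 5 genes and all lists were chosen with earlier results of these data known. Alternatives were other pseudocounts (1 and 64), no filter, quantile normalization, a replicate block, a trend in the prior variance, theca arrays alone, other probe sets, and leaving out arrays.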

Additional observations from a re-analysis of the deposited data

Results flagged for a closer look

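For the second of 3 NR2F2 probe sets, the arrays of the layers moved in opposite directions between small and medium follicles. In theca both medium arrays (735.1 and 731.1) lay above both small arrays (577.6 and 721.9), while in granulosa both medium arrays (91.2 and 112.3) lay below both small arrays (126.4 and 147.2). Theca minus granulosa in this size change was 0.56 ± 0.69, and its interaction test in limma gave an adjusted p of 0.999. The lead probe set of NR2F2 gave -0.05 ± 0.42 for the same difference.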

How the results depend on the processing

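All 240 layer changes of the lead probe sets with 1 array left out kept their direction and call (highest limma adjusted p = 0.00728), and so did 152 of 156 under the other alternatives. The 4 exceptions were other probe sets, namely the dimmest of APOD (0.74 in small follicles, 1.49 in medium ones and 0.61 in large ones) and the second of ADAMDEC1 (2.40 in small follicles). The granulosa change of APOD between large and small follicles was no longer called with log2(signal + 1) (-2.15, limma adjusted p = 0.0532), on the other probe sets (-1.63 and -1.15), or without theca small replicate 1 and granulosa large replicate 1 together (-2.32, limma adjusted p = 0.0594). The number of the 5 genes called in that comparison was then 0 in place of 1, and with 1 array left out it was 0 to 1 and the change ran from -2.51 to -1.59. In theca the number called was 0 to 1 with 1 array left out, both between medium and small and between large and small follicles, where TCF21 ran from 0.35 to 1.55. Values that were never called changed sign. INSL3 in theca was 0.12 (medium minus small) and 0.19 (large minus small) after quantile normalization, and large minus small was 0.01 without both arrays named and -0.54 to 0.01 with 1 array left out. With 1 array left out, INSL3 in granulosa ran from -0.66 to 0.34 (large minus small), APOD in granulosa from -0.16 to 0.37 (large minus medium, also -0.16 without both arrays), and NR2F2 in theca from -0.05 to 0.09 (medium minus small) and -0.42 to 0.00 (large minus small). NR2F2 in theca was -0.04 (medium minus small) after quantile normalization and -0.04 without both arrays, its layer difference in that size change ran from -0.14 to 0.05 and was 0.56 on the second probe set, and ADAMDEC1 in theca was 1.32 (large minus small) on its second probe set. The cause of these changes was not tested.

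Quantile normalization moved the median layer change in large follicles to -0.02, against -0.12 on the deposited scale. Relative to that median the 5 genes lay at 3.61 to 4.54, against 3.67 to 4.67. It called 465 probe sets higher and 240 lower in theca there, against 412 and 348. The number of called probe sets between the layers was 4273 over all sizes, with 3706 to 4321 under other alternatives and 2648 (without theca medium replicate 2) to 4847 (without theca small replicate 2) with 1 array left out. Between large and small granulosa it was 382, with 58 without both arrays, 158 with log2(signal + 64) and 0 without granulosa large replicate 1. With the replicate number as a replicate block, APOD in granulosa changed by -2.05 (limma adjusted p = 0.00918), no call of the 5 genes changed, and the layer count was 4188. Deviations of arrays of equal number correlated from 0.0727 to 0.402 within a layer and from -0.335 to 0.142 across layers, and with 2 numbers and no label that ties them the numbers were not taken to pair the arrays. With numbers crossed between the layers, an alternative added after this check, 5410 probe sets were called between the layers, 437 between large and small granulosa, with 5 and 1 of the 5 genes among them.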
